A study of Mus musculus with 9 samples.

Results

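The small nucleolar RNAs (snoRNAs) of mouse chromosome 7 were read from 205 transcript clusters, of 65534 clusters on the array. A cluster pools the array's probes for 1 transcribed locus, and it was a member if its identifier placed it on chromosome 7 and its only gene symbol belonged to a gene that RefSeq classes as a snoRNA. The clusters were singled out because many of them were lower in the ischemia zone (IZ) and the border zone (BZ) than in the non-ischemia zone (NIZ) of these same arrays. Those differences are therefore described here and not tested, and they support nothing. The hearts came from male mice labelled C57BL/6 (C57BL/6J in the protocol), aged 8 weeks, whose left anterior descending coronary artery was ligated for 45 min and then reperfused for 24 h. The left ventricle was divided into IZ, BZ and NIZ, with 3 arrays per zone from 3 mice, and 100 ng of total RNA was labelled for each array. All zones thus came from operated hearts, no sham heart is among these 9 arrays, and the labels do not say which arrays share a mouse. A zone is a piece of tissue with many cell types, so fewer cells of a type and less RNA per cell cannot be told apart.

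snoRNAs are short nuclear RNAs that guide chemical marks onto ribosomal and other RNAs. Box C/D snoRNAs direct 2'-O-methylation and box H/ACA snoRNAs direct pseudouridylation, and both are usually cut out of the introns of a longer host transcript. The interval between Snrpn and Ube3a is imprinted: the paternal allele produces a very long RNA, Snhg14, whose introns release tandem arrays of box C/D snoRNAs, while Ube3a is repressed on that allele in neurons by the far end of the same RNA. The matching human locus is the Prader-Willi and Angelman syndrome region, and its 2 large families, SNORD115 and SNORD116, are best known from brain.

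Of the 205 clusters, 170 lay between Ube3a and Snrpn in RefSeq gene order, all 170 of them inside the span of Snhg14. RefSeq gives these genes Gm symbols with no family name, so they were grouped by gene length and place. A 79-base group held 132 clusters (128 genes of 79 bases and 4 of 78), all between Ube3a and Ipw. A 94-base group held 36 clusters (34 genes of 94 bases and 2 of 92 or 93), 35 of them interspersed with the 18 genes that RefSeq does name as Snord116, of which 15 are also 94 bases long and none is a member. The other 2 interval members were Gm22496, of 88 bases, and Snord64, listed at 46 bases. The remaining 35 clusters lay elsewhere on chromosome 7, and 27 of them have Gm symbols.

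The snoRNA sequences themselves are not shown, because none of the 205 members had an entry among the sequences used here. Shown instead, because every interval snoRNA lies within their transcription unit, are windows of 300 bases around 2 starts of the host transcripts: the start of Snurf, which shares its window with 1 Snrpn start, and the start of Snhg14, which shares its window with the farthest upstream Snrpn start. Both are RefSeq sequences of build GRCm38.p6 on the minus strand, at chr7:60005150-60005449 and chr7:60450128-60450427, and reach from upstream of the start into the transcript. Capitals mark the 8 letters CGCATGCG, a palindrome that reads the same on both strands and was picked after the windows had been read.
Snurf and Snrpn: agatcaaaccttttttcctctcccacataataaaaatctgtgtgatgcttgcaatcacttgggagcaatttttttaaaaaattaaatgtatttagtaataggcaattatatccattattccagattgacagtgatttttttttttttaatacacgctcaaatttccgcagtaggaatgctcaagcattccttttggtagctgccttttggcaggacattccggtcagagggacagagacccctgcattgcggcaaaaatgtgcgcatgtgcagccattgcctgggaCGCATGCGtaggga
Snhg14 and distal Snrpn: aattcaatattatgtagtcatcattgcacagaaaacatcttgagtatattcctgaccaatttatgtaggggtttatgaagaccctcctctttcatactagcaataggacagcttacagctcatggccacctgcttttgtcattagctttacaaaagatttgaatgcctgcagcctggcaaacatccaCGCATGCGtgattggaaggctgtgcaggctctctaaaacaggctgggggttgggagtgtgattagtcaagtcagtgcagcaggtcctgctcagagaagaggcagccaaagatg
The 8 letters occur in all 4 distinct windows listed for Snrpn, Snurf and Snhg14, and in 1.87% of the 32851 promoter windows of the same table. The windows upstream of the Snurf window, that of Snhg14 included, share long runs of letters, so they are not separate occurrences. In the Snhg14 window the 8 letters begin 63 bases before the start, and in the Snurf window they lie after it. The match describes the letters only.

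Many of the members could not be told apart on the array. The 205 clusters gave 113 distinct profiles, a profile being the 9 values of a cluster over the 9 arrays, and 114 clusters shared all 9 values with another member. All of this sharing was inside the interval. The 79-base group had 54 profiles, and its 2 most repeated profiles covered 33 and 23 clusters, so 56 of the 132 clusters carried only 2 independent readings. The 94-base group had 22 profiles, the most repeated covering 4 clusters. The 35 clusters outside the interval gave 35 profiles. Counts below are given for clusters and, where they differ much, for distinct profiles, since clusters with shared values are 1 measurement.

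The values are log2 intensities, so 1 unit is a doubling, and levels of different clusters are not compared with each other. The median of all clusters on an array ranged from 4.19 to 4.29 over the 9 arrays, and 242 clusters held 1 value on all of them. On these arrays cardiomyocyte genes were bright in every zone (Tnnt2, cardiac troponin T, averaged 13.8 over the 9 arrays). The labels name heart as the source but hold the zone under a tag called brain. The 20 measured of 21 neuronal markers gave summed levels of 96.8 to 97.1 in IZ, 96.3 to 98.6 in BZ and 95.9 to 97.5 in NIZ. No cluster of the whole array passed an adjusted p of 0.05 in any contrast of zones (limma, Benjamini-Hochberg).

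**Figure D1:**
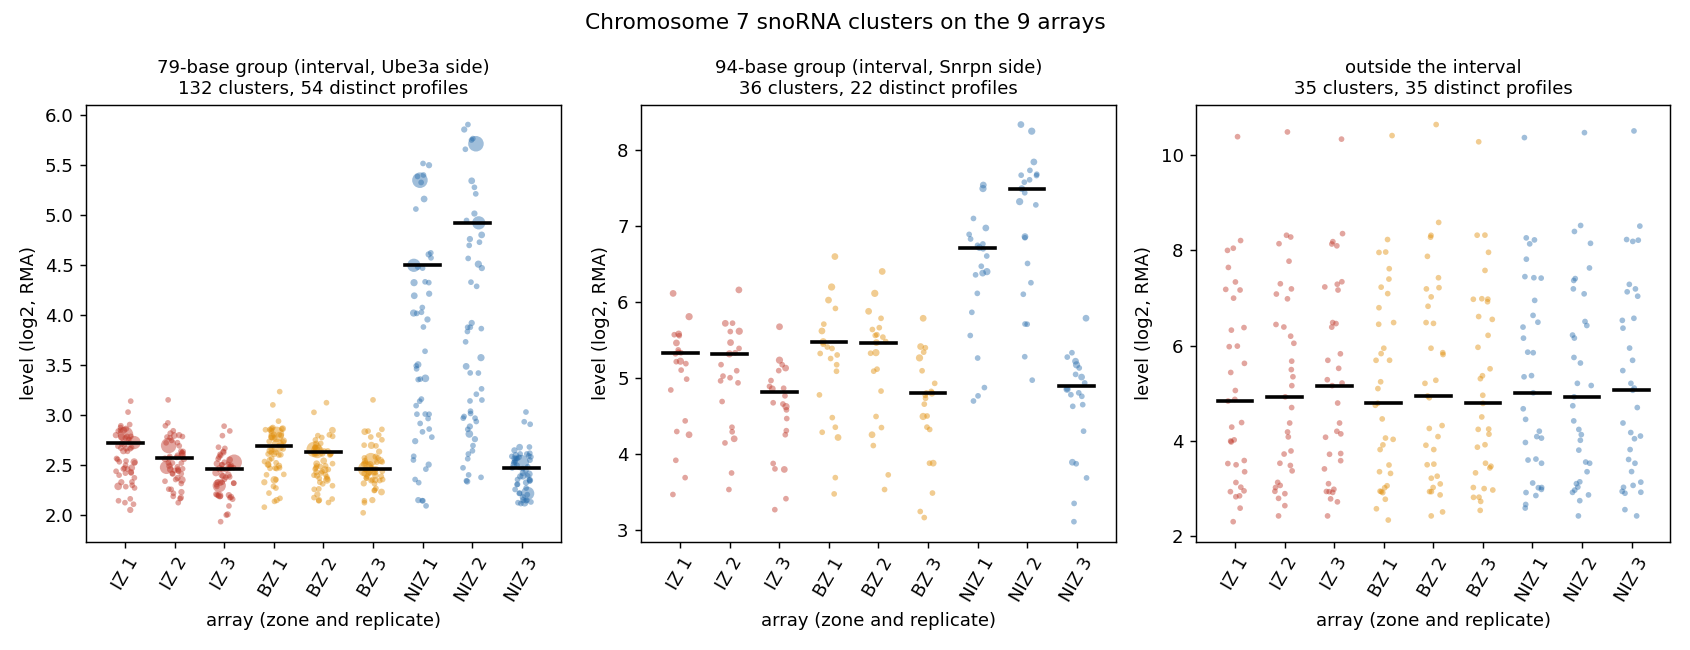
Levels (log2) of the distinct profiles of the 79-base group, the 94-base group and the clusters outside the interval on each of the 9 arrays. Each point is a profile, a larger point stands for more clusters that share it, and each black line is the median over clusters. NIZ replicates 1 and 2 stand above the other 7 arrays in both interval groups, with medians of 4.50 and 4.92 against 2.46 to 2.73 in the 79-base group.

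The high readings of the interval snoRNAs came from 2 of the 3 NIZ arrays. In the 79-base group the median level over clusters was 2.73, 2.57 and 2.46 on IZ replicates 1, 2 and 3. It was 2.70, 2.64 and 2.46 on the BZ arrays. On the NIZ arrays it was 4.50, 4.92 and 2.47. In these medians NIZ replicate 3 thus read like the IZ and BZ arrays, while NIZ replicates 1 and 2 stood about 2 units above them. With each of the 54 distinct profiles counted once the gap was smaller. The NIZ medians were then 3.50, 3.65 and 2.46, against 2.42 to 2.62 on the IZ and BZ arrays.

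The 94-base group had the same 2 arrays on top. Its median was 5.33, 5.32 and 4.82 in IZ, 5.48, 5.47 and 4.81 in BZ, and 6.71, 7.50 and 4.90 in NIZ. The median over the 35 clusters outside the interval was 4.84, 4.93 and 5.16 in IZ, 4.79, 4.95 and 4.79 in BZ, and 5.01, 4.93 and 5.07 in NIZ. No array stood apart there.

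Counted over clusters, NIZ replicates 1 and 2 both exceeded the other 7 arrays in 160 of the 205 members (69 of the 113 distinct profiles), against 5.1% of all clusters on the array. These were 121 of the 132 clusters in the 79-base group, all 36 in the 94-base group, both other interval members and 1 of the 35 outside. This is the pattern for which the clusters were chosen, and nothing is read from the share. The level exceeded the mean of the IZ arrays by more than 1 unit on NIZ replicate 1 in 136 members (47 profiles), against 0.699% of all clusters. On NIZ replicate 2 it did so in 135 (50 profiles), against 0.409%, and on NIZ replicate 3 in 0, against 0.0381%. On NIZ replicate 3, 137 members (84 of the 113 profiles) lay inside the range of the 6 IZ and BZ arrays, against 74.5% of all clusters. Counted by profile this is close to the share of all clusters, and nothing is read from it. On that array 58 members (20 profiles) were at their lowest of the 9 arrays, ties included, against 10.9% of all clusters. The value on NIZ replicate 2 was above that on NIZ replicate 1 in 159 members (77 profiles), against 46.3% of all clusters. The median of replicate 2 minus replicate 1 was 0.36 in the 79-base group and 0.77 in the 94-base group.

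The difference of the zone means follows from these arrays. IZ lay below NIZ by more than 1 unit in 116 members (37 profiles, 85 clusters of the 79-base and 31 of the 94-base group), against 0.259% of all clusters. BZ lay below NIZ by more than 1 unit in 105 members (31 profiles), against 0.226% of all clusters. In both zones at once it was 104 members (30 profiles), against 0.218%. All of these clusters were inside the interval. The 2 comparisons share the NIZ arrays, so they are not independent.

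The median difference between IZ and NIZ was -1.38 in the 79-base group, -1.20 in the 94-base group and -0.06 outside the interval, while the median over all clusters on the array was -0.01. Between BZ and NIZ it was -1.25, -1.08, -0.06 and 0.00 in the same order. With each distinct profile counted once, the 79-base medians shrank to -0.59 for IZ and -0.62 for BZ, whereas the 94-base medians were -1.15 and -1.03. Profiles of single clusters in the 79-base group reached similar sizes, for example Gm26366 at -1.89 and Gm22834 at -1.88 in IZ. The 79-base clusters read close to the lowest value of any cluster on each array, which ranged from 1.74 to 1.92, on 7 of the 9 arrays. Differences from such dim readings have no settled size and are not ranked against those of the 94-base group.

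Without NIZ replicate 3 the medians in IZ were -2.21 for the 79-base and -1.93 for the 94-base group, and without NIZ replicate 2 they were -0.86 and -0.62. In that first setting 114 members (41 profiles) passed the adjusted threshold in IZ, against 0.24% of all clusters (limma). In BZ 111 members (38 profiles) passed, against 0.22% (limma). With all 9 arrays 0 members passed in either contrast. At an unadjusted p under 0.05 (limma) there were 76 members (33 profiles) in IZ, against 3.96% of all clusters. In BZ there were 69 (28 profiles), against 5.28%. These are again the contrasts that chose the clusters, so nothing is read from the counts. The value of a single array therefore decides these calls. By replicate number, the median of IZ minus NIZ in the 79-base group was -1.77 for number 1, -2.43 for number 2 and 0.00 for number 3, and in the 94-base group -1.39, -2.12 and -0.11.

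**Figure D2:**
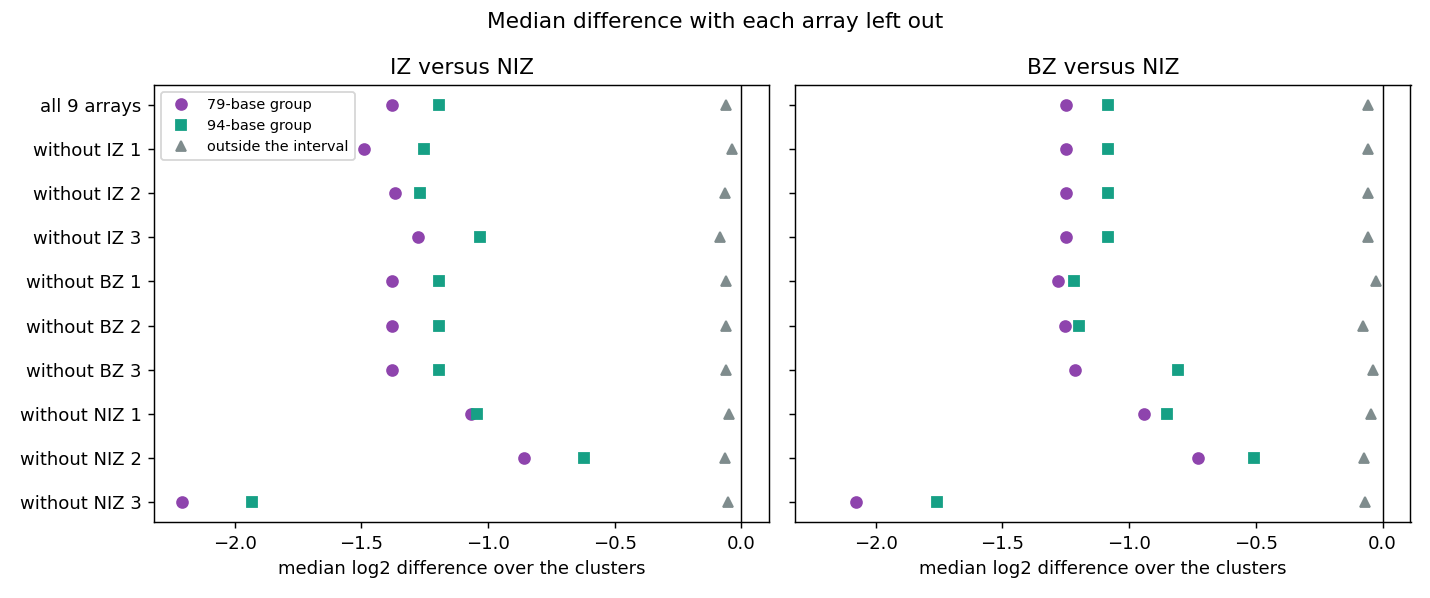
Median log2 difference from NIZ over the clusters of the 79-base group, the 94-base group and the clusters outside the interval, with all 9 arrays and with each array left out, for IZ (left) and BZ (right). Leaving out NIZ replicate 3 moves the 79-base median for IZ to -2.21 and leaving out NIZ replicate 2 moves it to -0.86, while the medians outside the interval stay near 0.

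The profiles that most clusters share set the size of the 79-base medians. The profile shared by 33 clusters, Gm24866 among them, read 5.35, 5.71 and 2.53 on the 3 NIZ arrays, and its means were lower by 1.85 in IZ and 1.88 in BZ. The profile shared by 23 clusters, Gm26283 among them, read 4.50, 4.92 and 2.22 on the NIZ arrays, with means lower by 1.38 and 1.25. Both show the same 2 high arrays.

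Single members span the range of each group. Gm24926 has the brightest profile of the 79-base group, shared by 2 clusters. It read 2.87, 2.82 and 2.63 in IZ, 2.87, 2.72 and 2.54 in BZ, and 5.50, 5.85 and 2.65 in NIZ. The zone means were 1.90 lower in IZ and 1.96 lower in BZ, beside an SD among the NIZ arrays of 1.76 (n = 3). NIZ replicates 1 and 2 did not overlap the other arrays, and NIZ replicate 3 fell inside their range.

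Gm24418, in the middle of the 79-base group by level, has a profile shared by 4 clusters. It read 2.53, 2.60 and 2.43 in IZ, 2.65, 2.46 and 2.55 in BZ, and 4.02, 3.58 and 2.39 in NIZ. Here NIZ replicate 1 was the highest array and NIZ replicate 3 the lowest of all 9. Gm23145, the dimmest of the group, read 2.13, 2.13 and 1.94 in IZ, 2.08, 2.16 and 2.13 in BZ, and 2.15, 2.38 and 2.13 in NIZ. NIZ replicate 2 alone stood above the rest, at 2.38 against at most 2.16.

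Gm23089 has the brightest profile of the 94-base group, shared by 3 clusters. It read 6.12, 6.17 and 5.68 in IZ, 6.60, 6.41 and 5.79 in BZ, and 7.55, 8.34 and 5.79 in NIZ. Its zone means were 1.24 lower in IZ and 0.96 lower in BZ, beside an SD among the NIZ arrays of 1.30 (n = 3). Replicate 3 was the lowest array within each zone.

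Gm23953, the middle profile of the 94-base group (4 clusters), read 5.23, 5.32 and 4.63 in IZ, 5.48, 5.34 and 4.50 in BZ, and 6.41, 7.33 and 4.86 in NIZ. Gm24518, its dimmest, read 3.47, 3.54 and 3.27 in IZ, 3.48, 3.54 and 3.25 in BZ, and 4.77, 4.98 and 3.12 in NIZ. Both kept the order of replicate 3 below replicates 1 and 2 in every zone.

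The members on either side of 1 unit in both contrasts were alike. Gm22510, just past it, read 2.85, 2.80 and 2.56 in IZ, 2.87, 2.85 and 2.84 in BZ, and 4.19, 4.80 and 2.60 in NIZ, with differences of -1.13 and -1.01. Gm24220, just short of it, read 2.71, 2.56 and 2.40 in IZ, 2.81, 2.64 and 2.64 in BZ, and 4.21, 4.47 and 2.35 in NIZ, with differences of -1.12 and -0.98. The same 2 arrays were high in each.

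The order of replicates inside IZ and BZ was not used in choosing the clusters. Replicate 3 was the lowest array of its zone in both IZ and BZ in 35 of the 36 clusters of the 94-base group (21 of 22 profiles), against 8.1% of all clusters on the array. It was so in 86 of the 132 clusters of the 79-base group (21 of 54 profiles) and in 5 of the 35 outside the interval. In the 94-base group replicate 3 lay below the mean of replicates 1 and 2 by a median of 0.48 in IZ and 0.61 in BZ, and in the 79-base group by 0.22 and 0.11. The low value of NIZ replicate 3 belongs to the pattern that chose the clusters and is left out of these counts. The clusters share sequence and arrays, so these counts describe a few arrays and carry no test.

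The median of IZ minus BZ was -0.04 over all members, -0.03 in the 79-base group, -0.11 in the 94-base group and -0.02 outside the interval. The 94-base median ran from -0.34 without BZ replicate 3 to 0.01 without IZ replicate 3. No member passed in that contrast (limma, smallest adjusted p of a member 0.943). In the same fit 0 members had an unadjusted p under 0.05, against 3.84% of all clusters. The error of that fit includes the NIZ spread, which was large in many interval members, so nothing is read from this 0. With only the IZ and BZ arrays fitted, the smallest unadjusted p of a member was 0.020 and the smallest adjusted p 0.885 (limma). The arrays of IZ all lay below those of BZ in 6 members (2 profiles), against 3.53% of all clusters. For Gm23089 the difference was -0.28 with a standard error of 0.59. That error also carries the NIZ arrays, whose SD was 1.30 against 0.27 in IZ and 0.42 in BZ (n = 3 each). The IZ and BZ arrays of Gm23089 overlapped, at 5.68 to 6.17 and 5.79 to 6.60.

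**Figure D3:**
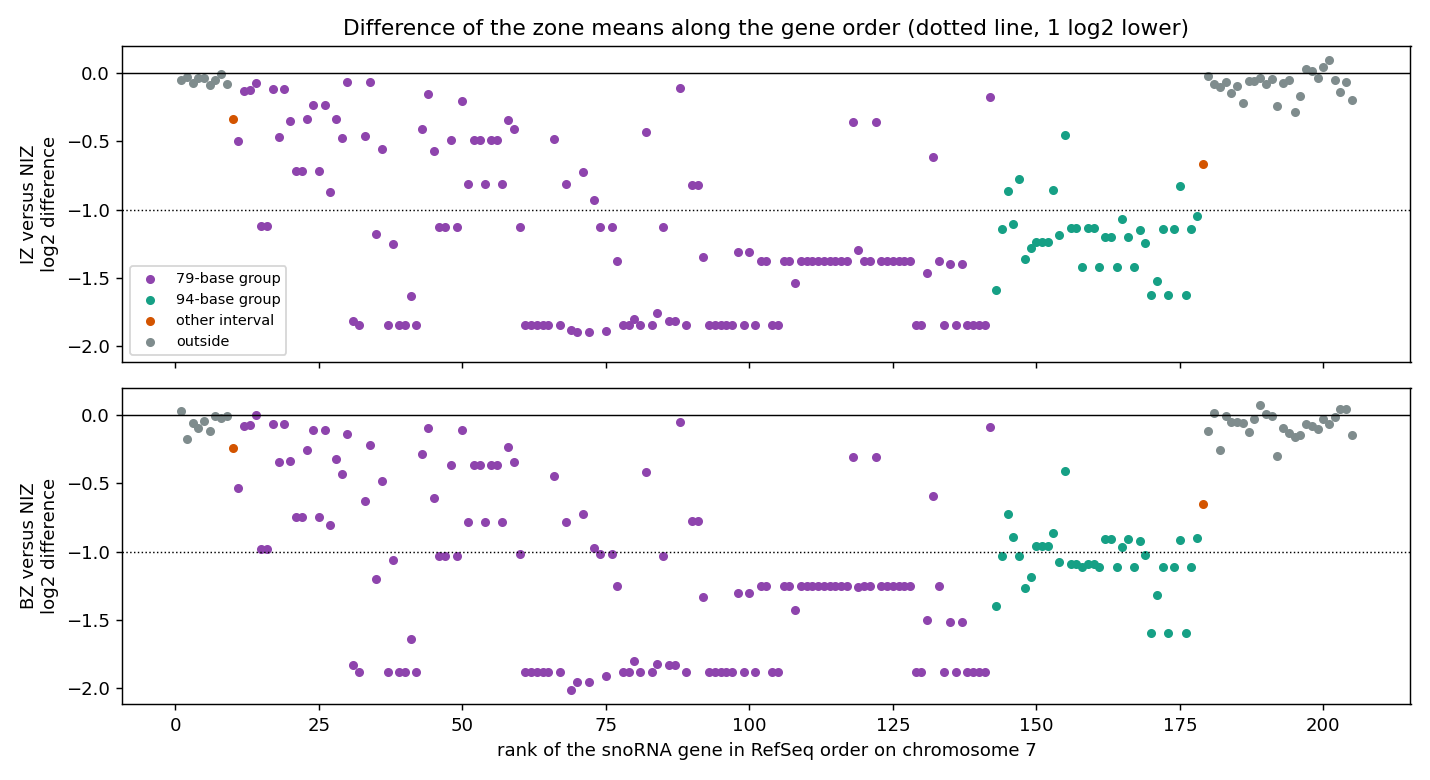
Log2 difference of the zone means from NIZ (IZ above, BZ below) for the 205 members, placed by rank of their genes in RefSeq order on chromosome 7 and coloured by group. The members outside the interval sit near 0 on both sides of it, and many 79-base clusters sit at the 2 repeated values of -1.85 and -1.38 in IZ.

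The difference varied along the 79-base array. With the 132 genes split in RefSeq order into 3 runs of 44, starting at the Ube3a end, the median of IZ minus NIZ was -0.53 in the first, -1.81 in the middle and -1.38 in the last. For BZ the medians were -0.57, -1.83 and -1.25. IZ was lower by more than 1 unit in 14, 31 and 40 clusters of the 3 runs. The runs held 30, 22 and 10 distinct profiles, so the part nearest the 94-base group was mostly repeats of a few readings. Across the 54 profiles of the 79-base group, Spearman's rho between the number of clusters that share a profile and IZ minus NIZ was -0.28, a description over profiles that share arrays and sequence.

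Snord64, a box C/D snoRNA of the same host region, read 4.06, 3.93 and 4.26 in IZ, 3.88, 4.47 and 3.95 in BZ, and 4.70, 5.74 and 3.80 in NIZ. Its zone means were lower by 0.67 in IZ and 0.65 in BZ, beside an SD among the NIZ arrays of 0.97 (n = 3). Without NIZ replicate 2 these differences were -0.17 and -0.15, and without NIZ replicate 3 they were -1.14 and -1.12. Gm22496 read 3.01, 2.81 and 2.83 in IZ, 2.94, 2.99 and 3.01 in BZ, and 3.18, 3.47 and 3.01 in NIZ. In both, NIZ replicates 1 and 2 were the 2 highest arrays.

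Outside the interval the snoRNAs were nearly level over the zones. Snord35a, a box C/D snoRNA, read 10.38, 10.48 and 10.33 in IZ, 10.41, 10.64 and 10.28 in BZ, and 10.36, 10.47 and 10.50 in NIZ. Snord35b, also a box C/D snoRNA, read 8.20, 8.28 and 8.09 in IZ, 8.23, 8.31 and 7.96 in BZ, and 8.22, 8.40 and 8.23 in NIZ. The zones overlapped in both.

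Snord23 read 8.00, 8.14 and 8.18 in IZ, 7.96, 8.28 and 8.32 in BZ, and 8.14, 8.15 and 8.19 in NIZ. Snord15a, from the Rps3 gene, read 7.34, 7.30 and 7.29 in IZ, 7.40, 7.43 and 6.92 in BZ, and 7.45, 7.37 and 7.29 in NIZ. BZ replicate 3 was the lowest array for Snord15a.

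Snora30, a box H/ACA snoRNA, read 7.64, 7.77 and 8.13 in IZ, 7.61, 7.87 and 7.58 in BZ, and 7.42, 7.63 and 8.21 in NIZ. Its highest array was NIZ replicate 3 and its lowest NIZ replicate 1, the reverse of the interval members. Gm25636 read 7.17, 7.08 and 7.17 in IZ, 7.23, 7.02 and 6.98 in BZ, and 7.81, 7.19 and 7.13 in NIZ, so NIZ replicate 1 alone was high. The other 4 of the 10 brightest (Gm23297, Gm23795, Gm23168 and Gm22934) had differences between -0.26 and 0.05.

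Neighbouring clusters that the rule left out read like the members. On chromosome 7, 31 clusters carry several symbols that include Gm26504, a gene with Snord116 as a RefSeq synonym, and they gave 3 distinct profiles. The profile shared by 19 of them read 6.24, 6.19 and 5.73 in IZ, 6.58, 6.41 and 5.84 in BZ, and 7.67, 8.60 and 5.81 in NIZ. Its means were 1.31 lower in IZ and 1.09 lower in BZ. NIZ replicates 1 and 2 were the highest arrays in all 31. Of 13 clusters with no symbol that are numbered among the interval members, 11 also had those 2 arrays highest.

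Of the long RNAs of the interval, Snhg14 was read from a dim cluster. The Snhg14 cluster read 2.66, 2.72 and 2.72 in IZ, 2.72, 2.72 and 2.70 in BZ, and 2.89, 3.19 and 2.72 in NIZ. NIZ replicates 1 and 2 were its 2 highest arrays, and its means were lower by 0.23 in IZ and 0.22 in BZ (limma, adjusted p = 0.999 and 0.854). The cluster that carries both the symbols Snrpn and Snurf, and so belongs to neither gene alone, read 8.41, 8.50 and 8.46 in IZ, 8.23, 8.74 and 8.48 in BZ, and 8.51, 8.90 and 8.32 in NIZ. The zones overlapped there, with means lower by 0.12 in IZ and 0.09 in BZ.

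Ube3a, the ubiquitin ligase gene at the far end, read 7.79, 7.79 and 7.92 in IZ, 7.76, 7.76 and 7.79 in BZ, and 7.72, 7.81 and 7.88 in NIZ. Ndn, the paternally expressed gene for the protein necdin, read 6.54, 6.30 and 6.13 in IZ, 6.51, 6.30 and 6.30 in BZ, and 5.75, 5.93 and 6.53 in NIZ. For Ndn, NIZ replicates 1 and 2 were the lowest arrays of all 9. Of 19 listed genes of the locus 14 were measured by a cluster of their own, and 0 passed in any contrast (limma), with 7 higher and 5 lower in IZ and a median of 0.01. Magel2, Mkrn3 and Peg12, the other paternally expressed genes measured, differed between zone means by 0.13 at most.

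**Figure D4:**
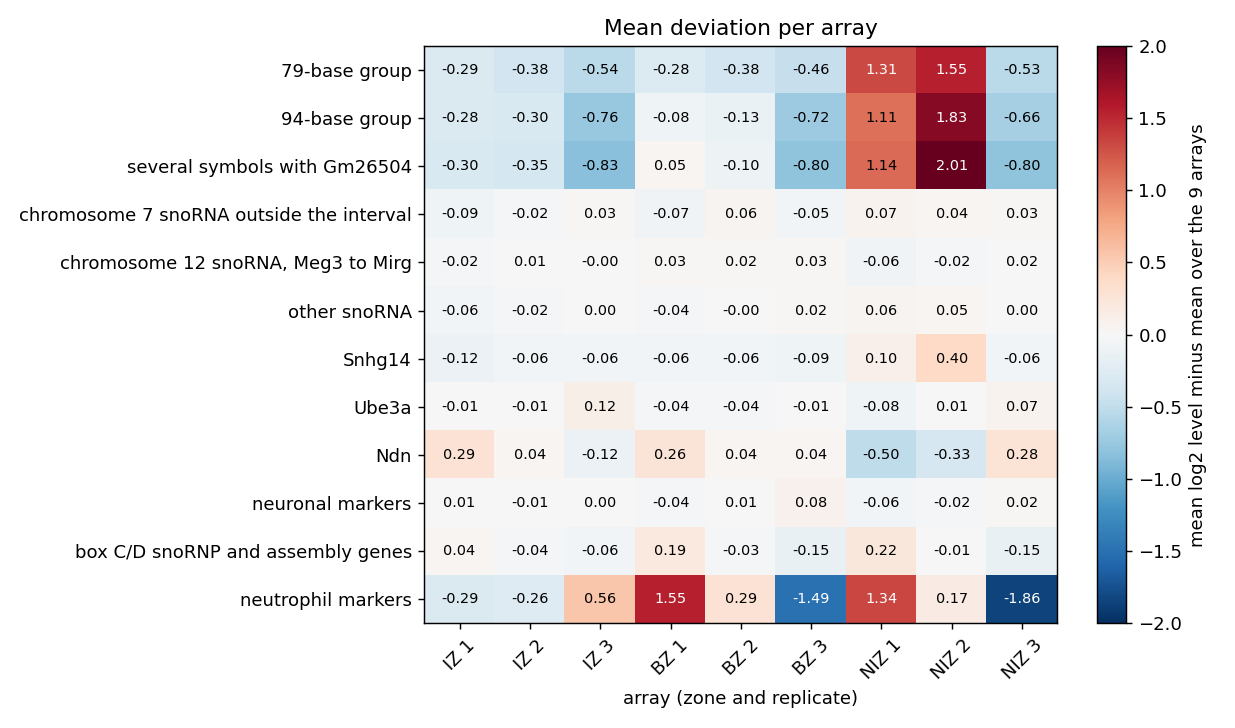
Mean log2 level on each array minus the mean over the 9 arrays, for groups of snoRNA clusters (top 6 rows), 3 genes of the locus and 3 gene lists. The interval groups are high on NIZ replicates 1 and 2 (1.31 and 1.55 in the 79-base group), the snoRNAs elsewhere stay within 0.09 of their mean, and the neutrophil markers vary most among the lists.

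snoRNAs of other chromosomes gave a measure of the same RNA class. The 737 other snoRNA clusters outside chromosome 7 had a median difference of -0.05 in IZ and -0.03 in BZ, and in 63 of them NIZ replicates 1 and 2 were both above the other 7 arrays. The imprinted Meg3 to Mirg interval of chromosome 12 also encodes tandem box C/D snoRNAs, and its 11 clusters had medians of 0.04 and 0.06. None of the 11 had NIZ replicates 1 and 2 on top. The high readings on these 2 arrays were thus not seen over the other imprinted snoRNA cluster.

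Genes for the proteins that bind snoRNAs differed little between the zone means. Of 14 genes listed for box C/D particles and their assembly 12 were measured. Of these, 5 were higher and 7 lower in IZ than in NIZ, with a median of -0.01. Fbl, the methyltransferase fibrillarin, differed by -0.01 in IZ and 0.11 in BZ, and Nop58, a core box C/D protein, by -0.19 and -0.20. Of the 6 genes for box H/ACA particles 5 were lower in IZ, with a median of -0.05. None of these 18 passed (limma). The NIZ arrays differed among themselves. As mean deviations from the mean over the 9 arrays, the box C/D list stood at 0.22, -0.01 and -0.15 on NIZ replicates 1, 2 and 3. The box H/ACA list stood at 0.24, 0.01 and -0.13. NIZ replicates 1 and 2 were both above the other 7 arrays in 1 gene of each list, Polr2a and Shq1. Polr2a was on the box C/D list but encodes a subunit of RNA polymerase II, not a protein of those particles.

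Host genes of other snoRNAs were measured for 6 of 22, with 4 lower and 2 higher in IZ and a median of -0.04. Snhg5, a host of box C/D snoRNAs, read 6.87, 6.80 and 6.75 in IZ, 7.01, 6.87 and 6.52 in BZ, and 7.49, 7.26 and 6.71 in NIZ. NIZ replicates 1 and 2 were its 2 highest arrays. They were so in 2 of the 6 measured host genes, Snhg5 and Snhg6, where all clusters gave 5.1%. Of 8 genes reported as targets of the human or mouse SNORD115 and SNORD116 families 7 were measured, and their median difference was 0.00 in both contrasts. Htr2c, the serotonin receptor gene whose transcript is the best known of these targets, read 3.11 on all 9 arrays. Nhlh2 and Pcsk1 averaged 3.09 and 3.37, and all 3 lay below the median of every array. Readings this dim or constant cannot show whether a transcript changed.

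Cell type markers were set beside the snoRNAs. The mean deviation of the neuronal markers was -0.06 on NIZ replicate 1 and -0.02 on NIZ replicate 2, where the 79-base group stood at 1.31 and 1.55. The 9 measured of 11 glial markers stood at -0.05 and -0.01. NIZ replicates 1 and 2 were both above the other 7 arrays in 0 of these 29 genes, where all clusters gave 5.1%. The 15 cardiomyocyte markers stood at -0.11 and 0.05, and the 9 measured of 10 endothelial markers at 0.18 and -0.03. In 3 of the 9 endothelial markers (Pecam1, Emcn and Fabp4) and in 1 of 10 neutrophil markers (Lcn2) those 2 arrays were the highest, which was so in 0 of the 15 cardiomyocyte markers.

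The leukocyte lists varied more. The 10 neutrophil markers stood at 1.34, 0.17 and -1.86 on the 3 NIZ arrays and at 1.55, 0.29 and -1.49 on the BZ arrays, with summed levels of 60.6 to 92.5 in NIZ, 64.2 to 94.7 in BZ and 76.3 to 84.7 in IZ. On the BZ arrays the 79-base group stood at -0.28, -0.38 and -0.46, and the 94-base group at -0.08, -0.13 and -0.72. On the NIZ arrays these groups stood at 1.31, 1.55 and -0.53, and at 1.11, 1.83 and -0.66. On the IZ arrays they stood at -0.29, -0.38 and -0.54, and at -0.28, -0.30 and -0.76. The neutrophil markers stood at -0.29, -0.26 and 0.56 there. The 10 macrophage markers were 0.48 higher in IZ and 0.47 in BZ by their medians, with summed levels of 82.8 to 87.1 in NIZ, 87.5 to 92.5 in IZ and 86.2 to 94.1 in BZ. The 9 measured of 10 fibroblast markers stood at -0.36, -0.02 and 0.04 on the NIZ arrays, and the 2 measured of 8 erythrocyte markers at 0.03, -0.15 and 0.37. The part of these cells in the snoRNA readings was not tested.

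Clusters with 1 symbol outside the members, 30216 in all, were ranked by correlation with the mean of the members over the 9 arrays. Clusters with several symbols or none were left out of the ranking. Highest was Pfdn2 (r = 0.98), a prefoldin subunit gene. Rbpms, AA986860, Ube2k and E030003E18Rik followed (r = 0.97 for the last). The ranges of these 5 genes were small. Pfdn2 read 8.31, 8.28 and 8.26 in IZ, 8.31, 8.31 and 8.31 in BZ, and 8.50, 8.50 and 8.28 in NIZ. Rbpms, an RNA-binding protein gene, read 8.56, 8.59 and 8.62 in IZ, 8.68, 8.64 and 8.54 in BZ, and 9.04, 9.07 and 8.57 in NIZ. With 2 high arrays of 9, such correlations rest on those 2 arrays.

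The members followed one another closely within the interval. The correlation of a cluster with the mean of the members over the 9 arrays had a median of 0.99 in the 79-base group, with a range from 0.37 to 1.00, and lay between 0.82 and 1.00 in the 94-base group. Outside the interval it ran from -0.56 to 0.72. The members are part of that mean, so these values describe how alike the profiles were.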

How the data were processed

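Total RNA of the 3 zones was hybridised to single-colour Affymetrix mouse transcriptome arrays, 9 in all. The log2 values used are those the authors deposited. The submitters' processing notes name RMA, Affymetrix Expression Console 1.0 and Transcriptome Analysis Console 3.0, while the genome build of the array annotation is not given in the sources used here. RMA summarises the probes of a cluster on a scale shared by all arrays. Clusters built on repeated sequences can carry identical values, but which probes they share was not tested. No further scaling was applied. Gene symbols came from the platform annotation (30421 clusters with 1 symbol, 2139 with several, 32974 with none). RefSeq was used for names, gene type, length, gene order and promoter windows only, and groups rest on length and order because its table gives the members no family names.

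Zones were compared with limma 3.58.1 in R 4.3.3 on all 65534 clusters and 9 arrays, without a block, with Benjamini-Hochberg adjusted p-values and a threshold of 0.05, after the fit had been tested on simulated data. In the main fit p-values rest on the spread among the 3 arrays of each zone, pooled over all 9 arrays. Each contrast thus also carries the spread of the zone not compared. Alternatives were replicate blocks, centring on array medians, quantile normalization, removal of dim clusters, single-symbol clusters only, a trended robust variance, 2-zone fits, array weights, the methods' one-way analysis of variance with Bonferroni-corrected pairs, distinct profiles, and leaving out arrays or replicate numbers. Same-numbered arrays deviated together between BZ and NIZ (correlations 0.62, 0.20 and 0.52), which was taken as pairing there, but not in every pair for IZ and NIZ (0.36, 0.08 and 0.25) or IZ and BZ (0.36, 0.06 and 0.20).

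Named members were the profiles of lowest, median and highest mean in each interval group, the other interval members, the 10 brightest outside the interval, and those nearest to 1 log2 lower in both contrasts; the profiles shared by most clusters were added. Members, 13 gene lists and rules were chosen with earlier results of these data known. Precision is limited by having 3 arrays in each zone.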

Additional observations from a re-analysis of the deposited data

How the results depend on the processing

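Over all members the median difference between IZ and NIZ was -1.14 and between BZ and NIZ -1.01. Counts of members past the adjusted threshold (limma) were 0 in all 3 contrasts, and leaving out arrays or replicate numbers gave 0 to 114 in IZ against NIZ and 0 to 111 in BZ against NIZ. The counts above 0 came without NIZ replicate 3 (114 and 111, or 41 and 38 profiles) and without replicate 3 of every zone (53 clusters in each). In the latter setting 68 of all 65534 clusters passed in IZ and 65 in BZ (limma). The clusters were chosen by these contrasts, so nothing is read from the counts. With NIZ replicate 1 or 2 left out the counts were 0. With the replicate number as a block, fixed or random, 0 members passed in each contrast (smallest adjusted p 0.807, 0.669 and 0.841 with the fixed block), so the pairing changed no call. The methods' analysis of variance with Benjamini-Hochberg adjustment also called 0.

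The median over all members ranged from -1.80 (without NIZ replicate 3) to -0.68 (without NIZ replicate 2) in IZ, and from -1.68 to -0.57 in BZ. With each distinct profile counted once it was -0.46 and -0.41. Leaving out arrays or replicate numbers moved the difference between IZ and NIZ from -2.90 to -1.30 for Gm24926, from -1.96 to -0.68 for Gm23089 and from -1.23 to -0.09 for Snord64. The small median of IZ minus BZ turned positive (0.003) without IZ replicate 3.

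Signal limits the 79-base group most: 0 of its 132 clusters were above their array's median on at least 3 arrays, against 34 of 36 in the 94-base group and 21 of 35 outside the interval. The 79-base group was high on 2 arrays only, so those 2 could not meet a rule of 3 arrays. Its medians there, 4.50 and 4.92 on NIZ replicates 1 and 2, lay above the array medians of 4.22 and 4.23. With 3 arrays per zone, 1 array decides whether the interval members pass. The cause of the difference between NIZ replicate 3 and the other NIZ arrays was not tested.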
